A study of Homo sapiens with 2 samples.

Results

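Voltage-gated and potassium ion channel genes were taken from the deposited table of gene expression by symbol: the genes whose symbols begin with KCN and a family letter and number, the CACNA, CACNB and CACNG genes of voltage-gated calcium channels, the SCN genes of voltage-gated sodium channels, the ryanodine receptor genes RYR1 to RYR3 and the inositol trisphosphate receptor genes ITPR1 to ITPR3. The rule found 142 of the 19607 genes in the table, of which 96 were potassium, 32 calcium and 14 sodium channel genes. The last 2 families of the rule sit in the membrane of internal calcium stores and were counted with the calcium class.

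The study knocked out AKT1 and AKT2, which encode protein kinases that act downstream of growth factor receptors, in CWR22rv1, a human prostate cancer cell line. RNA was sequenced from 1 library of CWR22rv1/Akt1/2 DKO cells, with the genotype Akt1/2 knockout, and 1 library of control cells, with the genotype wild type. The knockout cells were made by transfection of Cas9 plasmids with guides against both genes together with a puromycin marker plasmid, puromycin selection and isolation of monoclonal cells, and the labels do not state which clone was sequenced. Differences that belong to a clone, to the selection or to a single library therefore cannot be told apart from the genotype, and no difference below has a replicate check.

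The estimated reads summed to 9970815 (control) and 10718634 (Akt1/2 DKO). Fold changes are ratios of Akt1/2 DKO to control after scaling the libraries with edgeR's TMM method, and the 95% intervals are exact (Clopper-Pearson) intervals that cover counting error only. A gene was compared where the libraries held at least 10 reads together, and was called higher or lower where the fold change was at least 1.5. Reads are given below in the order control, then Akt1/2 DKO. AKT1 had 2645 and 591 reads and AKT2 had 2362 and 667. All 11 of the luminal prostate genes found in the table, FOXA1, HOXB13, KRT8 and KRT18 among them, had reads in both libraries, with sums of 27654 and 42649 reads, and 4 of them were higher and 4 lower in the knockout.

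Ion channels are membrane proteins that open a path for ions down their electrochemical gradients. Potassium channels let potassium leave the cell and pull the membrane toward a negative resting voltage, voltage-gated sodium channels carry the fast inward current of the action potential, and voltage-gated calcium channels turn depolarization into calcium entry. Most consist of pore-forming subunits together with auxiliary subunits that set gating and delivery to the membrane. They are best known in nerve and muscle, but epithelial and tumour cells also express many of them, where they bear on volume, calcium signals and the membrane potential.

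For 4 of the genes that differed most in the potassium class, the DNA just before a transcription start annotated by RefSeq is shown, because KCNJ8, KCNN2 and KCNQ5 had few reads in control and many in the knockout, and KCNH5 the reverse. Each line gives the 250 bases before the start on GRCh38.p14, read 5′ to 3′ on the strand of the gene, with every CG dinucleotide in capitals. KCNJ8 is shown from chr12:21774707-21774956 (minus strand), KCNN2 from chr5:114361820-114362069 (plus strand), KCNQ5 from chr6:72621814-72622063 (plus strand) and KCNH5 from chr14:63045459-63045708 (minus strand). The starts of KCNQ5 and KCNJ8 lie 272 and 875 bases inside the spans that GENCODE gives these genes, but those of KCNH5 and KCNN2 lie 56579 and 306525 bases inside, so GENCODE places other starts of both genes far upstream. Which start the cells used cannot be read from counts per gene.
KCNJ8: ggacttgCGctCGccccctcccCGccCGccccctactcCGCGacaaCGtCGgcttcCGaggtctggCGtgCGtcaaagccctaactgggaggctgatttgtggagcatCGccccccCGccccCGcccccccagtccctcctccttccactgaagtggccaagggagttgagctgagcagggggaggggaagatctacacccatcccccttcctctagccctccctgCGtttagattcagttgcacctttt
KCNN2: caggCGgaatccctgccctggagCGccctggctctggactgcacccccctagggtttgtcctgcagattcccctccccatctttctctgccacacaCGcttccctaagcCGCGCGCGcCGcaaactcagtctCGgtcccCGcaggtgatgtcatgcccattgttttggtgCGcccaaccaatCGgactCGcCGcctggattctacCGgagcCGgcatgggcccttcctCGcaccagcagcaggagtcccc
KCNQ5: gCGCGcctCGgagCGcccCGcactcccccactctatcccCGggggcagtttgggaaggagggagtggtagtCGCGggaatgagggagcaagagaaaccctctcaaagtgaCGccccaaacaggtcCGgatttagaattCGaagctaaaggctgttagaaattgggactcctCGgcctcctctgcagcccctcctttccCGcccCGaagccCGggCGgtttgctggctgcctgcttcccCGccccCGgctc
KCNH5: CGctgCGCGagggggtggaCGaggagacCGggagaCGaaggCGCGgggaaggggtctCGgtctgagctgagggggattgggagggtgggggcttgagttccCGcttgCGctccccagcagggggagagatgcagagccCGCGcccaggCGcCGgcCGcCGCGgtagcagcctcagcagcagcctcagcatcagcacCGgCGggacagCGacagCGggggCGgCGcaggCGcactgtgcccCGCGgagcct
The windows held 15, 17, 18 and 27 CG dinucleotides in that order, against a median of 11 and quartiles of 3 and 23 over 35116 RefSeq windows of the same length. The forkhead sequence GTAAACA and the TATA box sequence TATAAA were looked for on both strands, and neither was in any of the 4 windows. These sequences were present in 2.98% and 10.7% of all windows. RefSeq windows were found for 102 of the 142 channel genes.

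Of the 142 channel genes, 45 had no read in either library, 30 had between 1 and 9 reads in all and 67 could be compared. The unread genes included 7 of the 8 KCNA genes, the classical Shaker-type channels, and 6 of the 8 CACNG genes. Of the 67 compared genes, 37 were higher and 12 lower in the knockout. This was 73.1% of the compared channel genes, where 30.9% of all 13318 compared genes were at least 1.5-fold apart, 15.9% of them higher and 15.0% lower. With the added condition that the interval left out no change, 31 channel genes were higher and 11 lower, against 27.0% of all genes, 13.9% higher and 13.2% lower. The median log2 fold change of the channel genes was 0.78, and that of all compared genes was 0.01. Fewer cells with a transcript and less of it per cell cannot be told apart in RNA from whole cultures.

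Channel genes had few reads, with a median of 96 in both libraries together against 637 over all compared genes, and genes with few reads pass a fold threshold more often. Of the 67 genes, 15 reached 10 reads only in the Akt1/2 DKO library and 5 only in the control library, and such genes passed through the library in which they were high. The shares were therefore read by depth. Among genes with 10 to 99 reads, 66.5% of all genes were at least 1.5-fold apart, 37.3% higher and 29.2% lower, and 23 of 35 channel genes were higher and 5 lower. Among genes with 100 reads or more, 23.2% of all genes were at least 1.5-fold apart, 11.3% higher and 11.9% lower, whereas 14 of 32 channel genes were higher and 7 were lower. Depth was not matched here, since the median was 372 reads for these channel genes and 867 for all genes. With at least 10 reads required in each library, 24.8% of all genes were called, 12.1% higher and 12.7% lower, against 19 of 29 potassium, 7 of 11 calcium and 0 of 2 sodium channel genes.

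**Figure D1:**
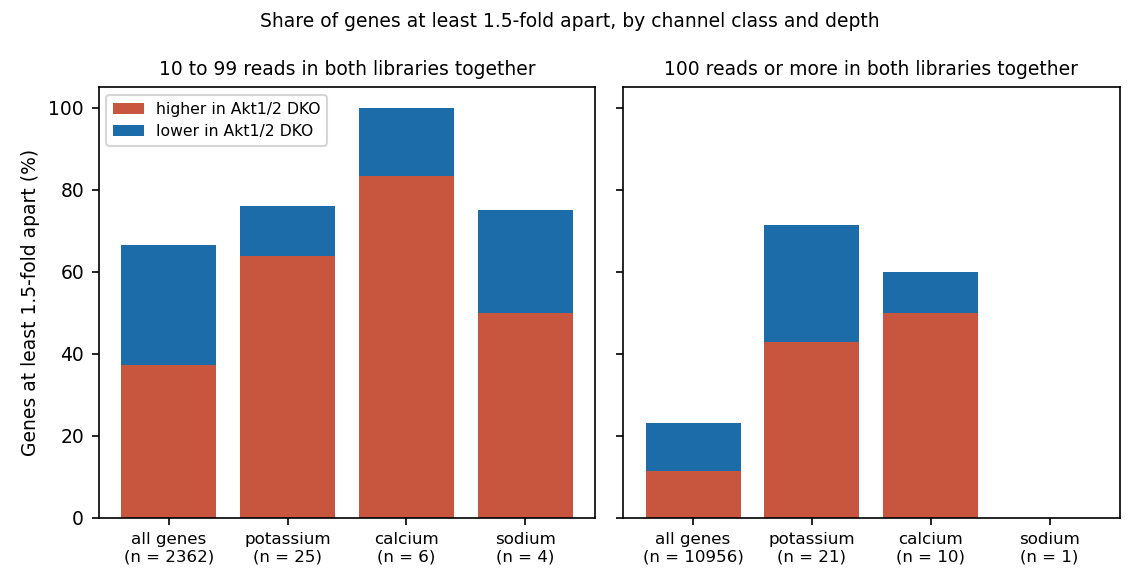
Percentage of genes at least 1.5-fold higher or lower in Akt1/2 DKO, for all genes and each channel class, at 10 to 99 reads (left) and 100 reads or more (right) in the libraries together. At the higher depth 15 of 21 potassium and 6 of 10 calcium channel genes were apart, against 23.2% of all genes, and the sodium class held 1 gene.

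The classes differed in size and in what could be read from them. In the potassium class, 46 of 96 genes were compared, 25 were higher and 9 lower, with a median log2 fold change of 0.78. In the calcium class, 16 of 32 genes were compared, 10 were higher and 2 lower, with a median of 0.93. In the sodium class, 5 of 14 genes were compared, 2 were higher and 1 lower, with a median of -0.03, which was 0.01 with total count and 0.02 with upper-quartile scaling. So few genes do not allow the sodium class to be described by a share. Pore-forming subunits counted 30 higher and 8 lower of 50 compared, and auxiliary subunits 7 higher and 4 lower of 17. The shares called were 73.9% of potassium, 75% of calcium, 76% of pore-forming and 64.7% of auxiliary genes, against 30.9% of all compared genes. The median reads were 97 for pore-forming and 84 for auxiliary genes. Of all genes with 10 to 99 reads, 66.5% were called, but the median there was 34 reads. The auxiliary genes were not confined to that depth and ran up to 1149 reads for CACNB3. The 2 shares are therefore not matched for depth, and whether the auxiliary share follows from few reads was not tested.

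**Figure D2:**
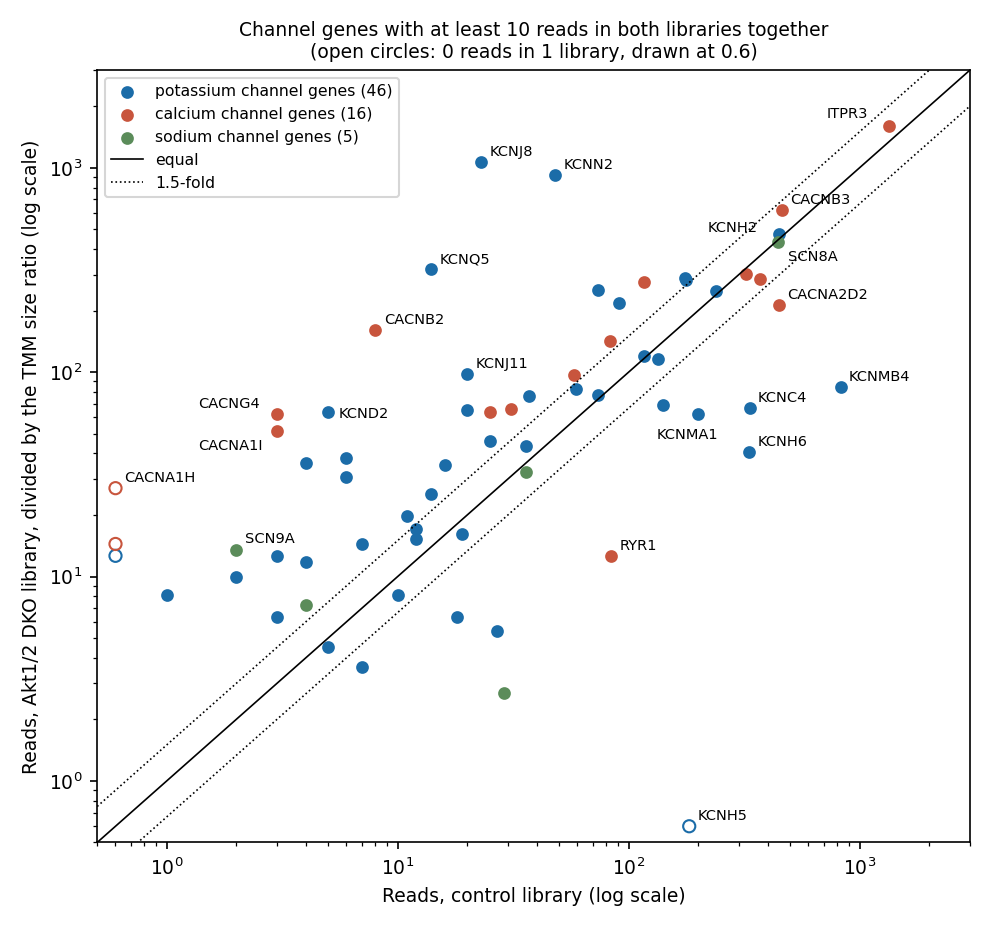
Reads of each of the 67 compared channel genes in the control library (horizontal) and in the Akt1/2 DKO library divided by the TMM size ratio of 1.11 (vertical), both on log scales, coloured by class. KCNJ8 and KCNN2 lie far above the 1.5-fold line, KCNMB4 and KCNH6 below it, and open circles mark the 4 genes with 0 reads in a single library.

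KCNJ8 and KCNN2 rose from low levels to the highest in the potassium class. KCNJ8 (ENSG00000121361, chr12:21764955-21775581, minus strand) encodes an inward rectifier that forms the pore of ATP-sensitive potassium channels. It had 23 control reads and 1177 Akt1/2 DKO reads, 46.2-fold higher (95% interval 30.6 to 73.1), and its FPKM, which scales the fragments of a gene by its length and by the depth of the library, was 0.96 and 45.6. KCNN2 (ENSG00000080709, chr5:114055545-114496500, plus strand) encodes a small-conductance potassium channel that opens when calcium binds its calmodulin. It had 48 and 1018 reads, 19.1-fold higher (interval 14.3 to 26.1), with FPKM of 1.58 and 34.7. In the control library the 3 potassium channel genes with the highest FPKM were KCNMB4 at 17.45, KCNH6 at 11.6 and KCNH2 at 11.1. In the Akt1/2 DKO library KCNJ8 and KCNN2 held the first places, and KCNH2 had an FPKM of 12.4.

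KCNJ8 alone made up 0.874% of the summed FPKM of the potassium class in control and 23.2% in Akt1/2 DKO cells, and KCNN2 made up 1.44% and 17.6%. The summed FPKM of the class was 109.9 in control and 197.0 in Akt1/2 DKO cells. The inward rectifiers together went from 5.29 to 54.5 FPKM and the small-conductance KCNN family from 2.16 to 35.9. The other members of these families had far fewer reads. KCNJ11, the other pore of ATP-sensitive channels, had 20 and 108 reads, 4.87-fold higher (interval 3.0 to 8.29), whereas KCNJ3, a pore gated by G proteins, had 74 and 86 reads, and KCNJ14 had 59 and 92. KCNN1 had 14 and 28 reads, with an interval of 0.918 to 3.71 that includes no change, and KCNN3 had 5 in each library.

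ATP-sensitive channels need a sulfonylurea receptor beside the pore. ABCC9, the receptor gene next to KCNJ8 on chromosome 12, had 185 and 238 reads, a log2 fold change of 0.21. LDHB, the nearest compared gene on the other side, had a log2 fold change of 0.61. ABCC8, the receptor gene beside KCNJ11 on chromosome 11, had 59 and 20 reads, 3.27-fold lower (interval 1.94 to 5.73). Each of the pore genes was thus higher than in control while its neighbouring receptor gene was lower or within the threshold.

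The KCNQ family, whose slow voltage-gated channels carry the M current that steadies the membrane, had 4 compared members, of which 3 were higher and none was lower. The shares over all compared genes were 15.9% higher and 15.0% lower. KCNQ5 (ENSG00000185760, chr6:72621792-73198851, plus strand) had 14 and 353 reads, 22.7-fold higher (interval 13.4 to 42.0), with FPKM of 0.36 and 5.85. KCNQ1, known from cardiac muscle and epithelia, had 12 and 17 reads, with an interval of 0.575 to 2.93 that includes no change. The summed FPKM of the family was 10.4 in control and 31.8 in Akt1/2 DKO cells.

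**Figure D3:**
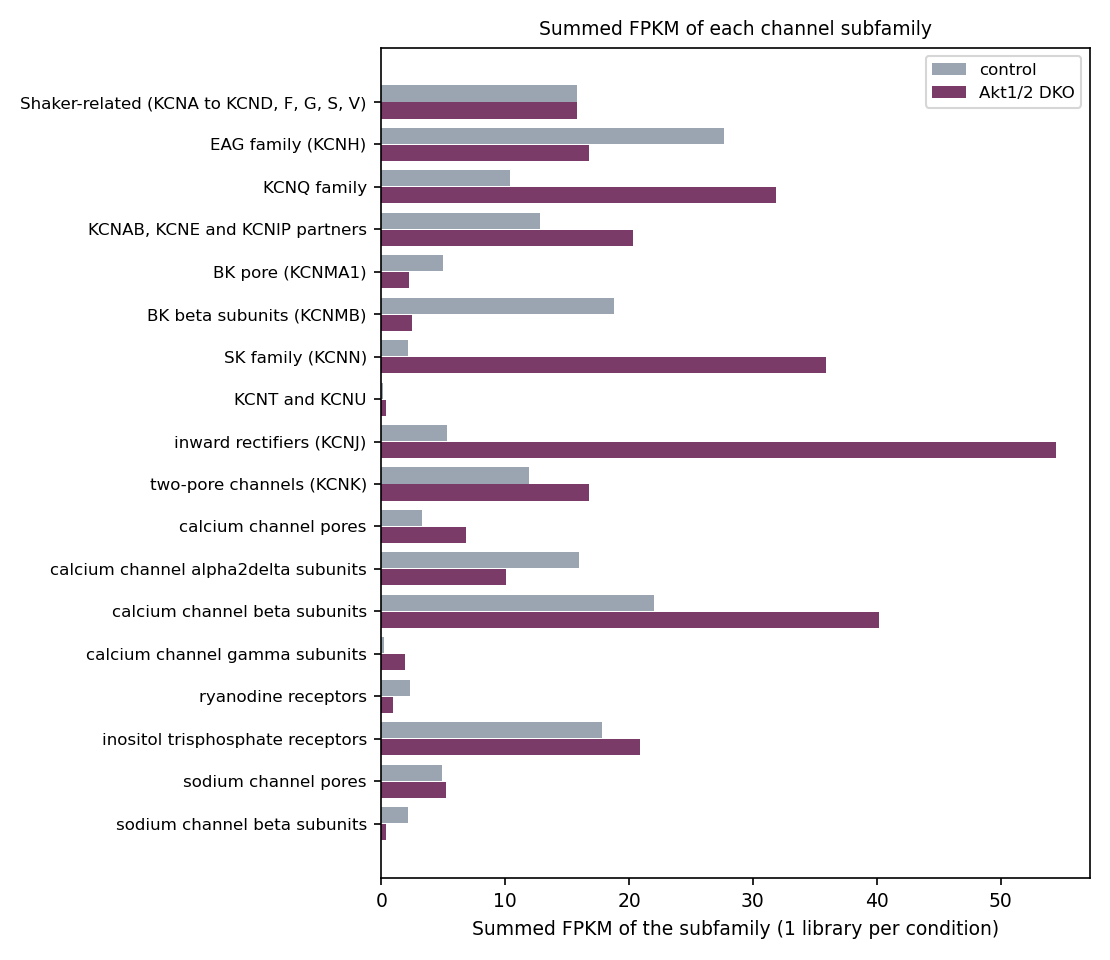
Summed FPKM of each channel subfamily in the control (grey) and Akt1/2 DKO (purple) library, 1 library per condition and so without error bars. The inward rectifiers and the KCNN and KCNQ families are higher in the Akt1/2 DKO library, the KCNH family and the BK subunits are lower, and the Shaker-related sum is 15.8 in both.

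The genes that fell most belonged to other branches of the potassium class. KCNH5 (ENSG00000140015, chr14:62699454-63102037, minus strand), a voltage-gated channel of the ether-à-go-go family, had 183 control reads and no Akt1/2 DKO read, at least 67.6-fold lower when the 0 was set to 3 reads. Its FPKM were 3.81 and 0. The nearest compared genes on both sides were distant, SNAPC1 at 903026 bases and PPP2R5E at 269320 bases. They had log2 fold changes of 0.07 and 0.04. KCNH6, a gene of the erg branch of this family, had 332 and 45 reads, 8.18-fold lower (interval 5.98 to 11.4). KCNH2, its erg relative known for ending the cardiac action potential, had 446 and 526 reads, a log2 fold change of 0.09 with an interval that includes no change.

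KCNH3, KCNH4 and KCNH8 had few reads and were higher. KCNH4 had 25 and 51 reads, 1.84-fold higher (interval 1.12 to 3.10). KCNH8 had 16 and 39 reads, a log2 fold change of 1.14, and KCNH3 had 6 and 34, 5.11-fold higher (interval 2.12 to 14.9). These 3 genes make up the elk branch of the family, and the 2 KCNH genes not named here had too few reads to be compared. The family's summed FPKM was 27.7 in control and 16.8 in Akt1/2 DKO cells, and its share of the potassium class was 25.2% and 8.51%.

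Both parts of the large-conductance, calcium- and voltage-activated BK channel were lower. KCNMB4 (ENSG00000135643, chr12:70366276-70434292, plus strand), an auxiliary beta subunit, had 829 and 94 reads, 9.78-fold lower (interval 7.89 to 12.2). KCNMA1, the gene of the pore, had 200 and 69 reads, 3.21-fold lower (interval 2.43 to 4.29). KCNMB3, a further beta subunit gene, had 18 and 7 reads, 2.85-fold lower (interval 1.14 to 8.08). LRRC26, a leucine-rich repeat protein that acts as a gamma subunit of this channel in epithelium, was outside the rule and was looked up after the values of the channel genes had been seen. It had 73 and 213 reads, 2.63-fold higher (interval 2.00 to 3.48). Beside KCNMB4, the nearest compared genes were CNOT2, with a log2 fold change of -0.40, and PTPRB, with 2401 and 91 reads.

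Among the Shaker-related genes the sum of FPKM was 15.8 in each library, although 5 of the 10 compared genes were higher and 2 lower. At the same threshold 30.9% of all compared genes and 66.5% of those with 10 to 99 reads were called. KCNC4, a channel of the fast, high-threshold KCNC group, had 334 and 74 reads, 5.00-fold lower (interval 3.88 to 6.53). KCNC2 had 27 and 6 reads, 4.99-fold lower (interval 2.02 to 14.8), whereas KCNC1 with 134 and 129 reads was within 1.5-fold. KCND2, a pore of the rapidly inactivating A-type current, had 5 and 71 reads, 12.8-fold higher (interval 5.24 to 40.7). Its deposited FPKM of 0.33 and 1.23 gave a smaller log2 ratio of 1.90, against 3.68 in reads. KCND1, of the same group, had 19 and 18 reads. KCNS3, a silent subunit that forms no channel on its own and alters the pores it joins, had 4 and 40 reads, 9.02-fold higher (interval 3.26 to 34.7).

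The tandem-pore KCNK genes, whose channels carry the background leak of potassium, had 7 compared members, of which 5 were higher and 2 lower. With the condition that the interval left out no change, 4 were higher and 1 lower. Under this condition 27.0% of all compared genes were called. At 1.5-fold alone, 30.9% of all compared genes and 66.5% of those with 10 to 99 reads were called. KCNK1 had 91 and 242 reads, 2.40-fold higher (interval 1.88 to 3.09). KCNK12 had 20 and 72 reads, 3.25-fold higher (interval 1.96 to 5.63), and KCNK3, a pore closed by external acid, had 37 and 85, 2.07-fold higher (interval 1.39 to 3.14). KCNK5 had 141 and 77 reads, 2.03-fold lower (interval 1.53 to 2.72). The other 3 had at most 17 reads together in the libraries, and the intervals of KCNK15 (0.906 to 12.3) and KCNK7 (0.493 to 9.04) include no change. Of the partners of voltage-gated potassium channels, KCNAB2, a cytoplasmic beta subunit, had 177 and 314 reads, 1.60-fold higher (interval 1.33 to 1.93). KCNIP3, a calcium-binding protein that joins KCND channels, had 117 and 133, and none of the 6 KCNE genes had enough reads to be compared.

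**Figure D4:**
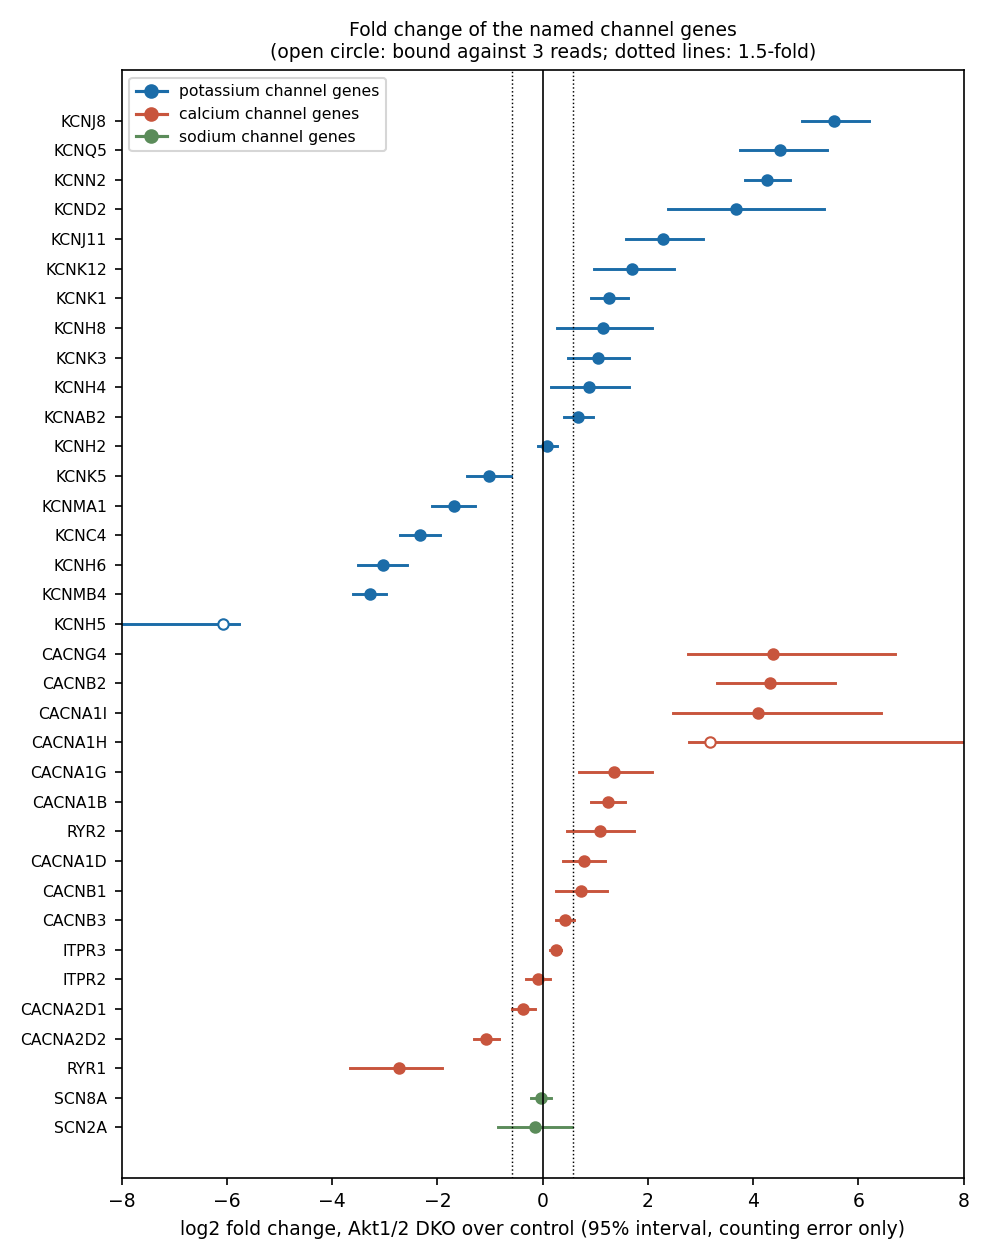
Log2 fold change of Akt1/2 DKO over control for 35 named channel genes, grouped by class, with 95% exact intervals that cover counting error only. Open circles are bounds for KCNH5 and CACNA1H, which had 0 reads in a single library, and dotted lines mark 1.5-fold.

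In the calcium class the pores of the surface channels were few in reads, and all 5 that could be compared were higher in the Akt1/2 DKO library. CACNA1I and CACNA1H reached 10 reads only in that library and so passed through the library in which they were high. The share called higher was 15.9% of all compared genes and 37.3% of those with 10 to 99 reads. CACNA1B, the N-type pore that triggers transmitter release in neurons, had 117 and 306 reads, 2.36-fold higher (interval 1.90 to 2.94). CACNA1D, an L-type pore, had 83 and 158 reads, 1.72-fold higher (interval 1.31 to 2.27), though under 1.5-fold by FPKM. The other 3 genes encode the T-type channels, which open at small depolarizations. CACNA1G had 25 and 71 reads, 2.56-fold higher (interval 1.60 to 4.22), CACNA1I had 3 and 57, 17.1-fold higher (interval 5.58 to 85.6), and CACNA1H had 0 and 30, at least 9.02-fold higher when the 0 was set to 3 reads. In FPKM all 10 pores together amounted to 3.32 and 6.85, below the auxiliary subunits that accompany them.

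Beta subunits bind the pores inside the cell and help to bring them to the membrane. CACNB2 (ENSG00000165995, chr10:18140677-18543557, plus strand) had 8 and 178 reads, 20.1-fold higher (interval 9.97 to 47.2), with FPKM of 0.24 and 7.82. CACNB1 had 58 and 107 reads, 1.66-fold higher (interval 1.20 to 2.33), and CACNB4 had 0 and 16, at least 4.81-fold higher. CACNB3, with the highest FPKM of the class at 20.03 and 29.4, had 461 and 688 reads, a log2 fold change of 0.43 that stayed under the threshold. All 4 beta subunit genes thus had more reads in the Akt1/2 DKO library after scaling, and their summed FPKM was 22.0 and 40.2. CACNB2 and CACNB4 reached 10 reads only in the Akt1/2 DKO library and so passed through the library in which they were high. Over all 13318 compared genes, 6751 had a log2 fold change above 0.

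The alpha2delta subunits, which lie outside the membrane and raise the number of channels at the surface, did not follow. CACNA2D2 had 447 and 236 reads, 2.10-fold lower (interval 1.79 to 2.47), and CACNA2D1 had 369 and 317, a log2 fold change of -0.37 within the threshold. CACNG4, best known as an auxiliary subunit of glutamate receptors, had 3 and 69 reads, 20.7-fold higher (interval 6.81 to 103.1). It was the single CACNG gene that could be compared.

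Of the release channels of internal stores, 4 genes could be compared, of which RYR2 was higher, RYR1 lower and ITPR2 and ITPR3 within the threshold. ITPR3, which releases calcium from the endoplasmic reticulum on inositol trisphosphate and had the most reads of any channel gene, had 1347 and 1773 reads, a log2 fold change of 0.25. ITPR2 had 322 and 334 reads, a log2 fold change of -0.10, and ITPR1 had 2 and 7 and was not compared. Of the ryanodine receptors, RYR1 (ENSG00000196218, chr19:38433699-38587564, plus strand), the release channel of skeletal muscle, had 84 and 14 reads, 6.65-fold lower (interval 3.75 to 12.7). RYR2, the cardiac form, had 31 and 73 reads, 2.12-fold higher (interval 1.38 to 3.35), and RYR3 had 1 and 3. The inositol trisphosphate receptors together had FPKM of 17.8 and 20.9, and the ryanodine receptors 2.31 and 0.98.

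The sodium class rested on SCN8A (ENSG00000196876, chr12:51590266-51812864, plus strand), a pore of neuronal action potentials, which had 442 and 480 reads, a log2 fold change of -0.03 (interval -0.22 to 0.16). Its FPKM of 4.44 and 4.34 made up most of the 7.06 and 5.58 of the class. SCN2A had 36 reads in each library. SCN9A had 2 and 15 reads, 6.76-fold higher (interval 1.57 to 61.0), and SCN4B, a beta subunit that modulates the pores, had 4 and 8, with an interval of 0.483 to 8.19 that includes no change. By FPKM, SCN4B went the other way, with 0.26 and 0.17, a log2 ratio of -0.61.

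Other genes of ion and calcium handling were described from 5 lists, in which 69 genes could be compared, 20 of them higher and 16 lower. Of 20 compared genes of store release and calcium entry, 6 were higher and 3 lower, with a median log2 fold change of 0.01. TRPC1, a cation channel, rose from 25 to 87 reads and the mitochondrial uniporter subunit MCUB from 287 to 484, while ORAI2, a pore of store-operated entry, fell from 256 to 110 and TMBIM6 from 14178 to 8863. Of 6 compared genes of calcium export, 2 were higher and 3 lower. The plasma membrane calcium pumps ATP2B1, with 2411 and 1274 reads, and ATP2B4, with 317 and 149, were lower, ATP2B3 with 19 and 41 was higher, and the exchanger SLC8B1 had 64 and 66. Of 18 compared genes of calmodulin and its effectors, 6 were higher and 3 lower. The kinases CAMK4, with 49 and 197 reads, and CAMK2B, with 73 and 212, were higher, and the calcineurin catalytic subunit PPP3CA, with 7122 and 3121, and the calmodulin gene CALM3, with 8912 and 6074, were lower.

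Of the 5 compared genes of the sodium and potassium pump, 2 were higher and 2 lower. The beta subunit ATP1B1 had 368 and 1991 reads, 4.88-fold higher (interval 4.36 to 5.47), and the regulator FXYD3 had 137 and 1053, 6.93-fold higher (interval 5.80 to 8.35). ATP1B3, a further beta subunit, had 728 and 446 and was lower. Of 20 compared cation channels outside the rule, 4 were higher and 5 lower. SCNN1A, a subunit of the epithelial sodium channel, which is not voltage-gated, had 83 and 1573 reads, 17.1-fold higher (interval 13.7 to 21.6). The TRP channel genes TRPV4 with 92 and 34 and TRPV3 with 62 and 40 were lower. Across the 5 lists 52.2% of the compared genes were at least 1.5-fold apart, where 30.9% of all genes were, with both directions in every list. The lists were chosen with earlier results of these data known, so this comparison is not independent of the choice.

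Genes that mark tissues rich in such channels were read beside them. Of 10 neuron markers, 4 could be compared and 2 were higher, SNAP25 with 65 and 320 reads and MAP2 with 77 and 450, and the list summed to 985 and 1974 reads. ELAVL4 had no read, and RBFOX3, STMN2 and NEFL had at most 3 in a library. Of 10 neuroendocrine markers, 6 were compared, CHGA was lower with 340 and 2 reads and ENO2 higher with 1404 and 3198, INSM1 and NEUROD1 had no read, and the list summed to 3389 and 5095. Of 12 muscle markers, only TNNT1 exceeded 2 reads in a library, with 495 and 976, and MYH1, MYOG, DES and 3 others had none. Of 10 fibroblast markers, 5 could be compared, of which 3 were higher and 2 lower, and for 4 the interval left out no change. VIM was among the lower ones with 897 and 84 reads. The list summed to 1047 and 258, and VIM held most of its control reads. Of all compared genes, 30.9% were at least 1.5-fold apart. The part of the marker genes in the channel values was not tested.

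Genes next to a channel gene or across from it on the other strand could share its change or its reads. For the 31 named channel genes that were called and had a compared neighbour, 27 of the 61 nearest compared genes were at least 1.5-fold apart themselves, 18 in the direction of the channel gene and 9 against it. This was 44.3% of the neighbours, against 30.9% of all compared genes. CHD5, 600 bases beyond KCNAB2, had 25 and 510 reads. CACNA1D overlaps DCP1A and CHDH on the opposite strand, and both had fewer reads in the knockout, with 1458 and 892 and with 1187 and 588. Whether reads were assigned by strand is not given in the sources used here, so reads from such pairs cannot be told apart. On chromosome 3 the median log2 fold change of all 754 compared genes was -0.54. Of the 5 compared channel genes there, CACNA2D2 and KCNMB3 were lower, CACNA1D and KCNH8 higher and KCNAB1 within the threshold.

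The deposited FPKM gave another scale for the same libraries. Over the 34 channel genes with at least 20 reads in each library, most points lay close to equality with the ratio of reads. KCNC4 had a log2 fold change of -2.32 in reads and -1.18 in FPKM, and KCNMA1 -1.68 and -1.13. KCNAB2 had 0.68 and 1.09, and KCNK1 1.26 and 0.81. These 4 genes kept their direction and their call on both scales. CACNA1D did not keep its call, with 0.78 in reads and 0.46 in FPKM, below 1.5-fold. By FPKM ratios, 7 calcium channel genes were higher and 2 lower of 14 that had a value in both libraries, and 1 sodium channel gene was higher and 2 lower of 5.

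**Figure D5:**
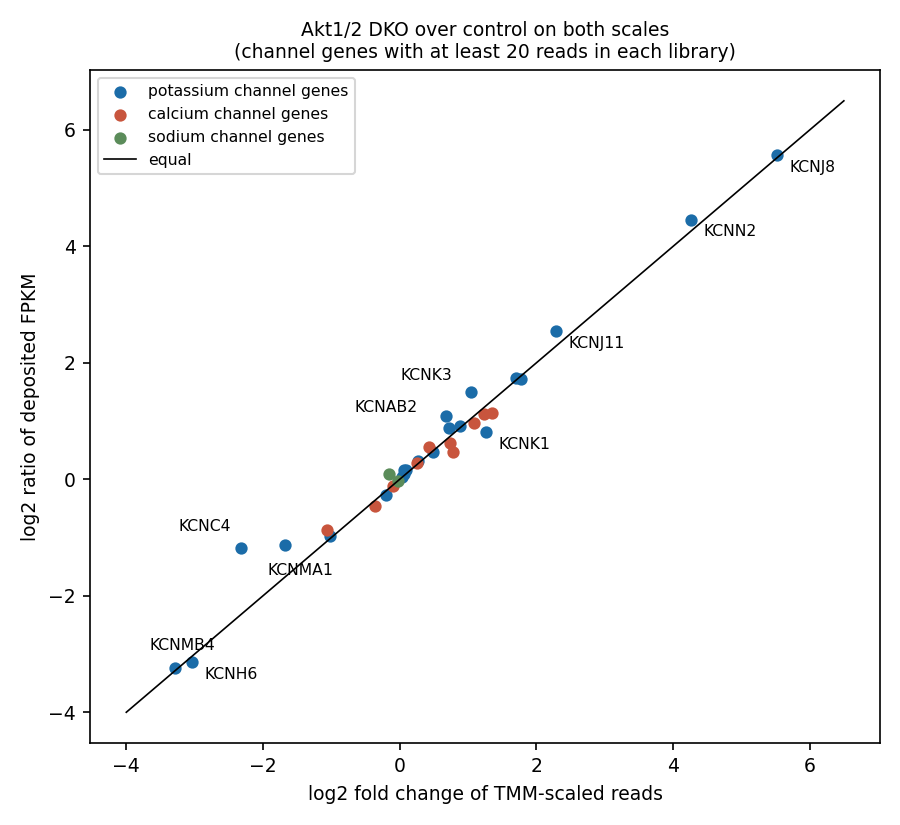
Log2 fold change of TMM-scaled reads (horizontal) against the log2 ratio of the deposited FPKM (vertical) for the 34 channel genes with at least 20 reads in each library. KCNC4 and KCNMA1 lie above the line of equality, with smaller falls in FPKM than in reads, and KCNJ8 and KCNN2 lie on or close to it.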

How the data were processed

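The table held, for 1 library per condition, estimated counts of reads per gene and FPKM, both deposited by the authors. The submitters' notes name fastp 0.20.0, TopHat, Cufflinks, edgeR and the build GRCh38.p10, without their roles. The deposited comparison columns (fold changes, p-values and FDR) were not used. Estimated counts were rounded to whole reads and scaled by TMM (edgeR 4.0.16, R 4.3.3), which set the ratio of Akt1/2 DKO to control at 1.11. Intervals came from Python 3.11.15 with scipy 1.17.1. A library at 0 was set to 3 reads, which is 0.301 CPM in control and 0.280 CPM in Akt1/2 DKO. With 1 library per condition no p-value was computed.

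The members and lists were chosen with earlier results of these data known. Named were channel genes with at least 50 reads, a 1.5-fold difference and an interval that left out no change (at most 20 per class), those with at most 3 reads in a library and at least 30 in the other, the 3 highest by FPKM in each class, all RYR and ITPR genes and, of each list of other ion-handling genes, the 2 highest and 2 lowest folds among genes with at least 50 reads. Some of the genes that the rule picks are not reported here. Other genes were named after their values were seen, as were the list of channel partners that gave ABCC8, ABCC9 and LRRC26 and the count at 100 reads or more. In that list of 11 partners, 2 of 6 compared genes were higher and 2 lower. Positions are those of GENCODE release 29 (GRCh38). Steps were tested on simulated data. Alternatives were DESeq2 1.42.0 size factors, total count and upper-quartile scaling, FPKM ratios, other read minimums, a 2-fold threshold and a prior count of 1. KCNJ12 and KCNE1 have near-identical copies in the genome, and their reads are uncertain.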

Additional observations from a re-analysis of the deposited data

How the results depend on the processing

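At 1.5-fold, 34 of 46 potassium, 12 of 16 calcium and 3 of 5 sodium channel genes were apart. Of all 13318 compared genes, 4117 were (30.9%). A minimum of 50 summed reads gave 19 of 26 potassium, 10 of 14 calcium and 0 of 2 sodium channel genes. The share of all genes was then 25.7%. A minimum of 10 reads per library gave 19 of 29 potassium, 7 of 11 calcium and 0 of 2 sodium, against 24.8% of all genes. A minimum of 100 summed reads was chosen after seeing the data. It gave 15 of 21 potassium, 6 of 10 calcium, 0 of 1 sodium and 2546 of all genes (23.2%). A 2-fold threshold left 28 of 46 potassium, 10 of 16 calcium and 2 of 5 sodium channel genes, and 2391 of all genes (18.0%). The lower counts follow from the construction of these settings, which leave fewer genes to compare or ask for a larger difference. All 38 channel genes that the naming rule picks stayed within their counting interval and on the same side of 1.5-fold under total count scaling, upper-quartile scaling, DESeq2 size factors and a prior count of 1. SCN8A, at -0.03 and within the threshold, became 0.01 with total count and 0.02 with upper-quartile scaling, and the other 37 kept their sign. With FPKM, 31 of the 36 that could be compared stayed within it, and KCNMA1 (-1.13), KCNC4 (-1.18), KCND2 (1.90), KCNAB2 (1.09) and KCNK1 (0.81) left it with the same sign on the log2 scale. CACNA1D lost its call by FPKM (0.46), SCN2A changed sign within the threshold (-0.15 and 0.10), and the sodium class had 1 gene higher and 2 lower. No paired analysis was possible because there is a single library in each group. Depth limited the 30 channel genes with 1 to 9 reads, which allowed no comparison, and the sodium class.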
